A study of Homo sapiens with 6 samples.

Results

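The extended major histocompatibility complex (MHC) and the large histone gene cluster beside it lie on the short arm of human chromosome 6. Every CTCF peak whose midpoint lay at 25.7 to 33.5 Mb of this chromosome (hg19) was taken from the 3 deposited peak lists, which gave 289 of the 57935 peaks of D3, 219 of the 39434 peaks of E4 and 206 of the 38645 peaks of WT. Merging overlapping peaks of the lists gave 298 regions, of 60235 over the genome. They were split by position into the histone and extended class I segment (25.7 to 29.6 Mb, 108 regions), class I (29.6 to 31.4 Mb, 89 regions), class III (31.4 to 32.2 Mb, 41 regions) and class II (32.2 to 33.5 Mb, 60 regions).

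The lists come from chromatin immunoprecipitation with an antibody against CTCF, followed by sequencing, in untreated HCT-116 cells, a human colon cancer cell line. D3 and E4 are each 1 clone whose genotype is labelled as a CTCF mutation, and the position of that mutation is not stated in the labels. WT is the wild-type line. With 1 CTCF library per population, no difference between them has a replicate check and none could be tested, and the 3 libraries made without antibody were not analysed here. The lists differ in length and the read depth behind them is unknown, so numbers of peaks were read as shares of a list and repeated with every list held to the 38645 strongest peaks (equal list length).

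CTCF is a zinc-finger protein that binds a long GC-rich motif, stops cohesin on the chromatin fibre and so sets the anchors of loops and the borders of domains. The MHC is among the most gene-dense parts of the human genome. Its class I genes present peptides from inside the cell to T cells, its class II genes present peptides taken up from outside, and class III holds complement, cytokine and housekeeping genes. The genes of the histone cluster are short, mostly without introns, and supply histones for newly copied DNA. CTCF sites between class II genes are known from B cells as elements that the class II promoters contact.

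No hg19 sequence was used here, so sequence is shown for a pair of antigen-processing promoters that lay under strong regions of all 3 lists and that hold a match to the core of the CTCF motif. TAP2 encodes a subunit of the pump that carries peptides to class I molecules, and PSMB9 a subunit of the immunoproteasome that cuts those peptides. Both sequences are RefSeq promoters of GRCh38.p14, 250 bases before to 50 bases after the gene's start, written 5′ to 3′ on the strand of the gene, TAP2 from chr6:32838690-32838989 (minus strand) and PSMB9 from chr6:32853942-32854241 (plus strand). Capitals mark the match to the motif core, which reads CC, 3 bases of any kind, AG, 2 bases of any kind and GGC, and in both promoters lies on the opposite strand.
TAP2: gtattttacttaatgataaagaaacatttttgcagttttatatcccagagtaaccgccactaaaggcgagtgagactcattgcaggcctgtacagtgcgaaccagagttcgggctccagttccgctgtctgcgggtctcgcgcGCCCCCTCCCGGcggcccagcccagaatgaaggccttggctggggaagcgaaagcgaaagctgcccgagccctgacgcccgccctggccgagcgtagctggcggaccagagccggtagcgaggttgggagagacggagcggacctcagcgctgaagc
PSMB9: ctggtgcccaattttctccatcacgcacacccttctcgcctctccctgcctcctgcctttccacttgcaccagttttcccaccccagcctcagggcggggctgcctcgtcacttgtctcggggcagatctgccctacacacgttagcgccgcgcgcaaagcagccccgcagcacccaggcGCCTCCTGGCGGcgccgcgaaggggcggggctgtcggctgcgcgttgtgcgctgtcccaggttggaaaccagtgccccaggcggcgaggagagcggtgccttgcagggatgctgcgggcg

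On both strands, 10.6% of the 35116 RefSeq promoters hold this pattern. Of the 162 genes of the lists used below, 90 had a RefSeq promoter at the same gene end as in the hg19 windows, and a region overlapped that promoter at 12 of them. Regions called in all 3 lists did so at ZSCAN31, NFKBIL1, HLA-DMA, TAP2, TAP1, PSMB9 and BRD2, and regions of fewer lists at HIST1H4D, HIST1H4E, BTN2A1, ZNF322 and CYP21A2. The pattern was found in 3 of these 12 promoters, those of TAP2, PSMB9 and ZNF322, and in 0 of the 78 promoters with no region over them. It also occurred in promoters of BTN1A1, ZKSCAN8, TRIM10, DDR1 and COL11A2. These were left out of the 90 because their start or gene length did not match the hg19 windows. Whether a region lies over them was not determined, so the counts cover matched promoters only. A match is a description of the letters and not a mapped site.

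The first comparison concerned density. CTCF peaks were about as dense over class I, class III and class II, and less dense over the histone and extended class I segment. D3 held 48.3 peaks per Mb over class I, 48.8 over class III, 46.9 over class II and 26.2 over the histone and extended class I segment. E4 held 35.0, 40.0, 36.9 and 19.5 peaks per Mb over the same segments, and WT held 35.6, 38.8, 35.4 and 16.7. The histone and extended class I segment was the sparsest in each list, while class I and class III of D3 differed by less than 1 peak per Mb.

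Over the whole window the density was 37.1 peaks per Mb in D3, 28.1 in E4 and 26.4 in WT, which is 1.89, 2.10 and 2.02 times the density over all chromosomes but Y. The rest of chromosome 6 held 18.3, 12.6 and 11.6 peaks per Mb. Of 378 tiles of the window's length laid over these chromosomes, 11 held more peaks than the window in D3, 11 in E4 and 14 in WT. The median tile held 143.5, 96 and 91 peaks. The histone and extended class I segment alone came to 1.33 times the genome's density in D3, 1.46 times in E4 and 1.27 times in WT.

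**Figure D1:**
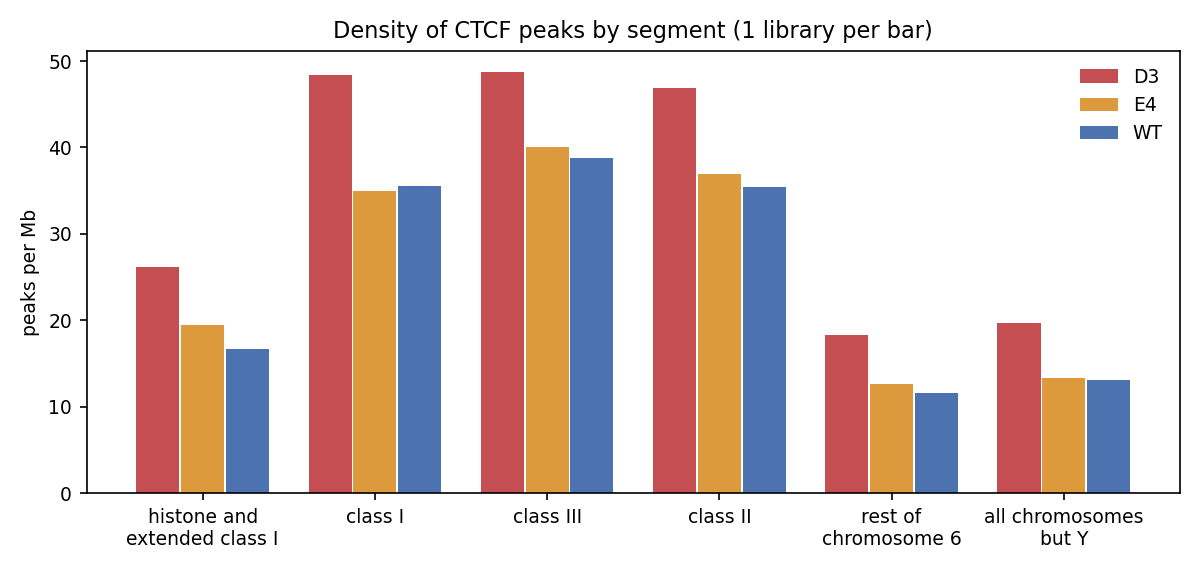
Peaks per Mb (vertical axis) in the 4 segments, the rest of chromosome 6 and all chromosomes but Y, with 1 bar for each of D3, E4 and WT and 1 library behind each bar. Class I, class III and class II reach 35.0 peaks per Mb or more in every list, and the histone and extended class I segment stays between 16.7 and 26.2.

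As a share of its own list, the window held 0.499% of the peaks of D3 (0.443 to 0.560), 0.555% of those of E4 (0.484 to 0.634) and 0.533% of those of WT (0.463 to 0.611). Brackets hold exact 95% intervals by the Clopper-Pearson method. They cover counting error and not the spread between cultures. The 3 intervals overlap. The number of peaks over the window in D3 was 1.40 times that of WT, and over all chromosomes but Y it was 1.5 times, so the excess of D3 was no larger here than over the genome. At equal list length the window held 203 peaks of D3, 214 of E4 and 206 of WT. By segment these were 67, 74 and 65 for the histone and extended class I segment, 66, 63 and 64 for class I, 29, 32 and 31 for class III, and 41, 45 and 46 for class II.

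In bins of 100 kb the peaks were unevenly spread, and the fullest bin was the same in the 3 lists. The bin at 31.0 to 31.1 Mb, which holds CDSN, had 9 D3, 9 E4 and 10 WT peaks, the most of any bin in each list, with D3 tied at 33.3 to 33.4 Mb. The bin at 32.9 to 33.0 Mb, with HLA-DMB, HLA-DMA, BRD2 and HLA-DOA, held 8, 8 and 9. At 33.3 to 33.4 Mb there were 9, 6 and 8 peaks. Of the 78 bins, D3 had more peaks than WT in 49, as many in 25 and fewer in 4, and E4 had more in 21, as many in 45 and fewer in 12. At equal list length D3 had more in 13 bins and fewer in 13, and E4 more in 17 and fewer in 12.

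**Figure D2:**
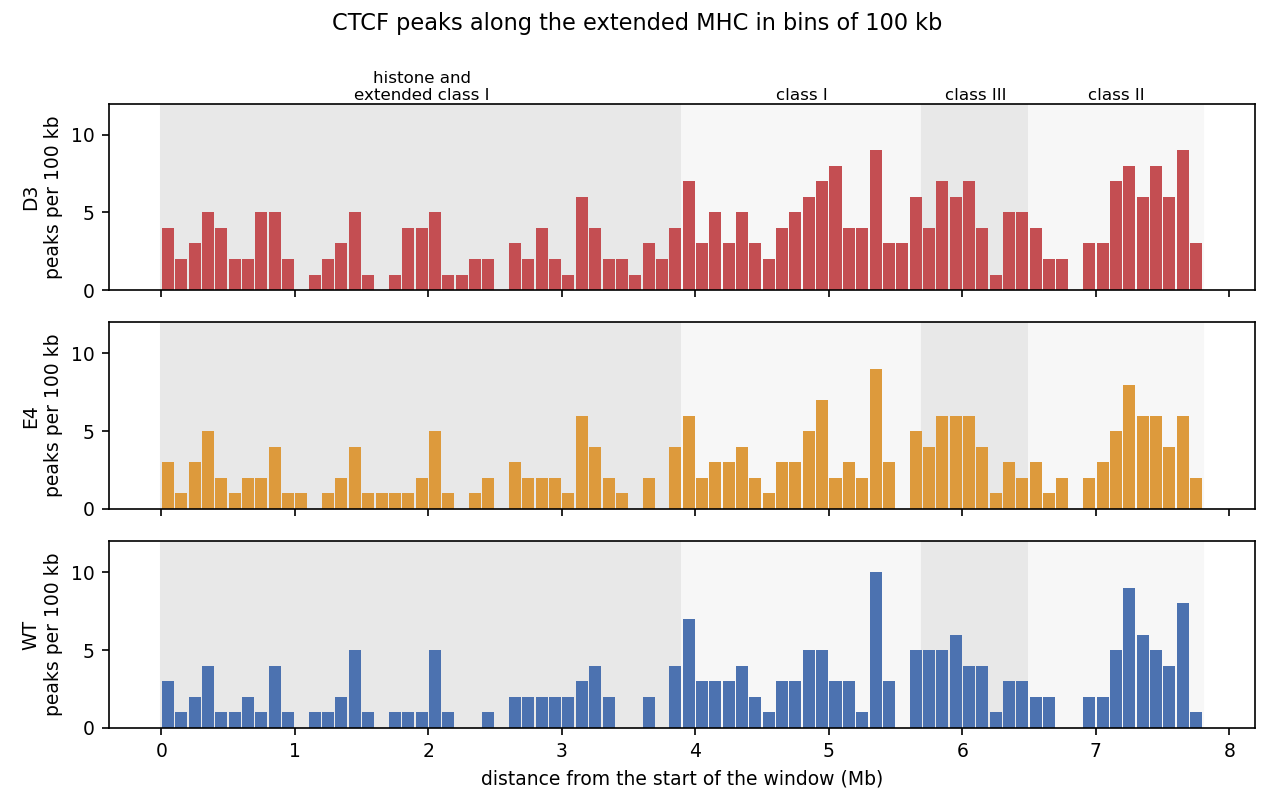
Number of CTCF peaks per 100 kb (vertical axis) along the window, by distance from its start in Mb (horizontal axis), in D3, E4 and WT from top to bottom, with the 4 segments shaded. The tallest E4 and WT bars, 9 and 10 peaks, stand at the same place in class I.

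The D3 list exceeded both others in the bin at 30.7 to 30.8 Mb, which begins in FLOT1 and holds IER3, an early response gene. D3 had 8 peaks there, E4 2 and WT 3, which became 3, 2 and 3 once the lists were of equal length. The stretches without any peak were long in the histone and extended class I segment, where the median gap between merged regions was 24.2 kb, against 13.6 kb in class I, 11.1 kb in class III and 13.2 kb in class II. Over all chromosomes but Y the median gap was 23.4 kb.

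Widths were compared next. The peaks of D3 were the widest and those of WT the narrowest, here as over the genome. The median width in the window was 933 bp in D3, 821 bp in E4 and 706.5 bp in WT, beside 873, 750 and 639 bp over all chromosomes but Y. By segment, the median of D3 was 1126 bp in class I, 1122 bp in class III, 847 bp in class II and 807.5 bp in the histone and extended class I segment. The medians of E4 lay between 760 and 900 bp, and those of WT between 677 and 743.5 bp.

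To set like with like, widths were also read in the 176 regions of the window that held exactly 1 peak of every list. There the D3 peak was wider than the WT peak in 165 regions, or 93.8%, where 90.9% of such regions over the genome showed this. The E4 peak was wider than the WT peak in 118, or 67.0%, beside 67.3% over the genome. The median ratio of width was 1.57 for D3 over WT and 1.16 for E4 over WT in the window, and 1.59 and 1.17 over the genome. These shares are close to the background, and the wider peaks of D3 were seen over its whole list.

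**Figure D3:**
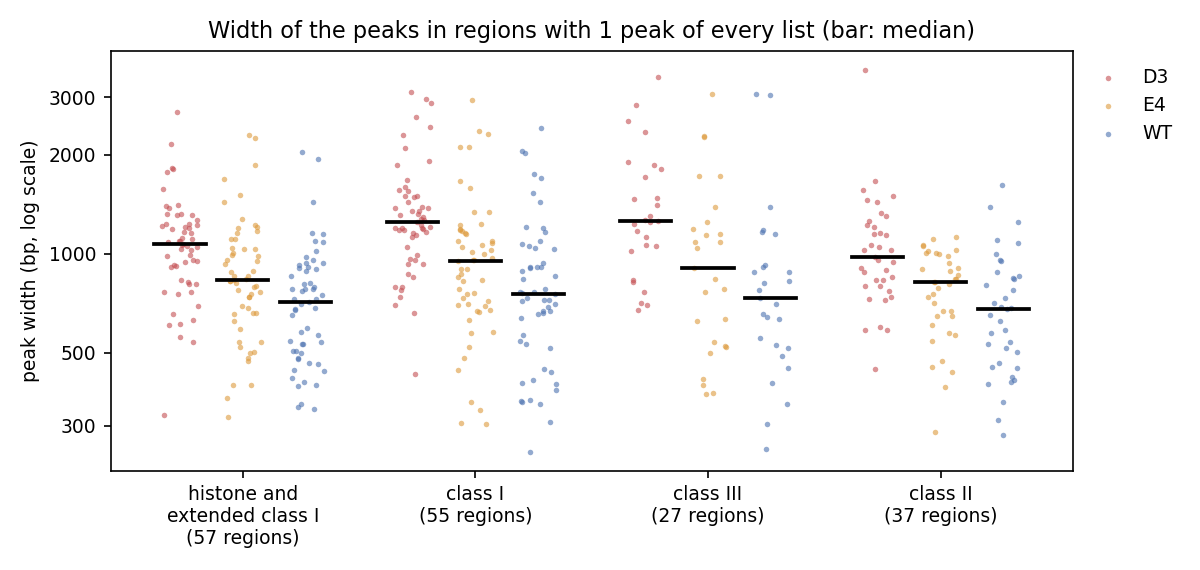
Width in bp on a log scale (vertical axis) of the D3, E4 and WT peaks in regions of the window with 1 peak of every list, by segment, where each point is a peak and the black bar the median. The D3 median, from 980 to 1262 bp, lies above the E4 median and the WT median in every segment.

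The broadest region called in all 3 lists is named for each segment, and some of these were split in WT. The broadest, chr6:29617461-29622633 in class I, was 5173 bp wide, with 1 peak in D3 of that width, 1 in E4 of 4267 bp and 2 in WT that covered 2699 bp. The broadest of class II was chr6:33244745-33248641, with 1 peak of 3897 bp in D3, 2 peaks in E4 that covered 2439 bp and 2 in WT that covered 2035 bp. In class III it was chr6:31563723-31567387, between LTB and AIF1, with widths of 2836, 2288 and 3040 bp, and in the histone and extended class I segment chr6:28737084-28740602, with 3168 bp, 3008 bp and 2 WT peaks covering 1786 bp. Over the window WT had more than 1 peak in 7 merged regions, E4 in 1 and D3 in 2. Of the 185 regions of all 3 lists in the window, 176 had exactly 1 peak of every list, beside 31746 of 32495 over the genome.

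The third comparison asked which regions were present in which list. Most WT peaks of the window had a peak in the clones too. Of its 206 WT peaks, 203 met a D3 peak, 98.5% (95.8 to 99.7), and 192 met an E4 peak, 93.2% (88.9 to 96.2). Thus D3 lacked 3 WT peaks and E4 lacked 14, where 4.05% and 14.3% of all WT peaks had no D3 and no E4 peak. D3 had the longer list, and at equal list length the order of the clones turned, with 92.7% of these WT peaks overlapped by D3 and 93.2% by E4. By −log10 q, 60.7% of the WT peaks of the window ranked above the middle of the WT list. With the genome's rate in each decile of WT −log10 q, 6.43 peaks would have had no D3 peak and 22.4 no E4 peak. The counts seen, 3 and 14, were lower than these, and the cause was not tested.

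Absence was concentrated among the weakest peaks, as it was over the whole WT list. The weakest decile of WT peaks had 18 members in the window, of which D3 lacked 3, or 16.7%, and E4 lacked 10, or 55.6%, beside 26.9% and 57.9% of that decile over the genome. Among the 125 WT peaks of the window in the upper 5 deciles, 0 lacked a D3 peak and 0 an E4 peak. Such absence was rare over the genome too. There 0% to 0.129% of each of these deciles lacked a D3 peak and 0.0259% to 4.43% an E4 peak. The histone and extended class I segment had 6 of 65 WT peaks without an E4 peak, class I 4 of 64, class III 2 of 31 and class II 2 of 46. D3 lacked 2 WT peaks in class I and 1 in class III.

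Both clones lacked the same 3 WT peaks, all weak, where 3.69% of all WT peaks had no peak in either clone, and both clones were set against the same WT library. They were chr6:31654905-31655370 in class III (fold 3.47), chr6:30862260-30863442 in the collagen receptor gene DDR1 (fold 3.31) and chr6:30458115-30458539 in HLA-E (fold 3.15). Fold is the authors' enrichment over the peak caller's background, and it describes a peak within its own list. The percentile of a peak, used below, is its rank by −log10 q within its own list, from 0 for the weakest to 100 for the strongest. These 3 peaks lay at percentiles 7.95, 4.67 and 1.54 of the WT list. The DDR1 peak had an E4 peak 0.858 kb away, and the class III peak had a D3 peak 1.44 kb and an E4 peak 1.8 kb away.

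Of the 298 merged regions, 185 were called in all 3 lists, 62.1% (53.9% of all regions of the genome). This share was 53.7% in the histone and extended class I segment (58 of 108), 65.2% in class I (58 of 89), 68.3% in class III (28 of 41) and 68.3% in class II (41 of 60). A further 66 regions were in D3 only, 22.1% (26.1% over the genome), 25 in D3 and E4 (8.39%, beside 9.31%), 11 in D3 and WT (3.69%, beside 6.62%), 8 in E4 only (2.68%, beside 1.45%), 3 in WT only (1.01%, beside 2.37%) and 0 in E4 and WT (beside 0.216%). At equal list length 179 of 235 regions, 76.2%, were in all 3 lists, beside 65.5% over the genome.

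**Figure D4:**
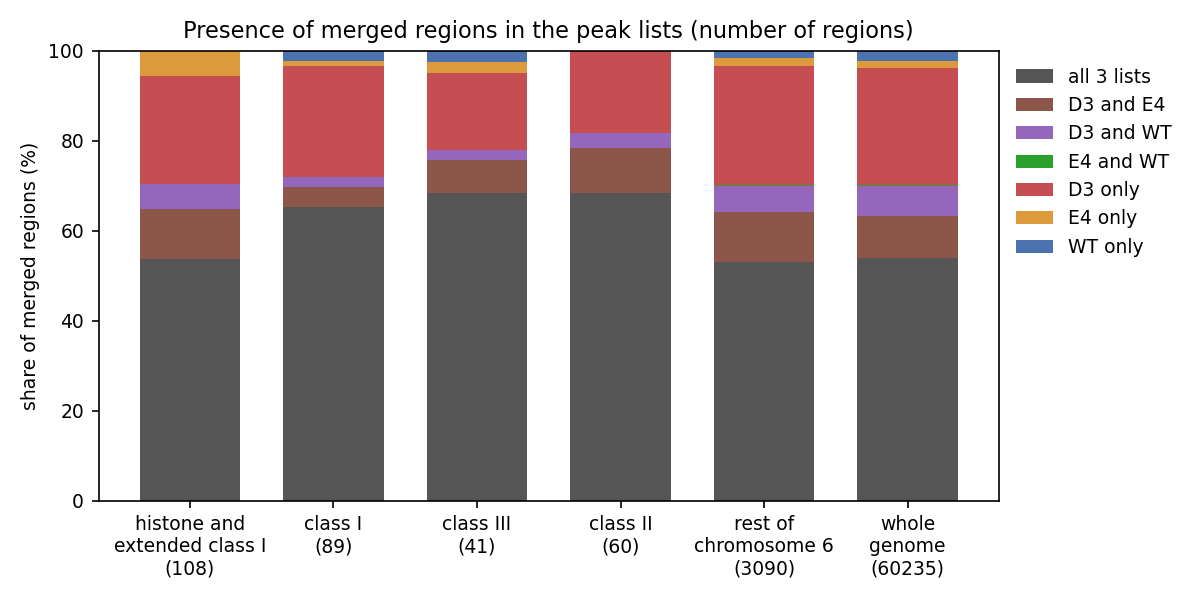
Share of merged regions in percent (vertical axis) by the lists that hold a peak in them, for the 4 segments, the rest of chromosome 6 and the whole genome, with the number of regions under each bar. Regions of all 3 lists make up 53.7% of the histone and extended class I segment and 65.2% to 68.3% of the other segments.

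Regions of fewer lists had lower median percentiles than regions of all 3 lists, here as over the genome. The 66 regions of D3 only had a median percentile of 18.3 and reached 55.2, while the medians of the 185 regions of all 3 lists were 74.8 (D3), 66.4 (E4) and 63.3 (WT). Over the genome these medians were 17.2 for D3 only, and 71.5, 58.4 and 57.0 for regions of all 3 lists. Single regions of D3 and E4 in the window reached percentile 61.8 in D3 and 67.4 in E4. A WT peak was lacking at 25 of the 210 regions called in both clones, 11.9%, where 14.7% of such regions over the genome had none. This count was 11 at equal list length. It was 59 where a list had to cover 50% of the region, which also counts regions with a narrower WT peak. The 5 strongest of these were chr6:31706006-31706651 next to MSH5 (fold 7.29 in D3 and 8.71 in E4), chr6:28180044-28180744 (7.63 and 4.88), chr6:32793456-32794486 in TAP2 (5.80 and 5.95), chr6:25890509-25891235 (6.15 and 5.38) and chr6:30414679-30415657 (7.21 and 4.10). The first, beside the meiotic gene MSH5, lay at the 56.9th percentile of D3 and the 67.4th of E4, and its nearest WT peak was 8.42 kb away.

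Between the clones, D3 overlapped 211 of the 219 E4 peaks, 96.3% (92.9 to 98.4), and E4 overlapped 211 of the 289 D3 peaks, 73.0% (67.5 to 78.0). E4 thus had 8 peaks without a D3 peak (2.54% over its whole list) and D3 had 78 without an E4 peak (34% over its whole list). Against WT, D3 had 92 peaks without a WT peak and E4 had 33, where 36.9% and 16.6% of the whole lists had none.

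Of the 8 regions of E4 only, 6 lay in the histone and extended class I segment, 5.56% of its regions (1.45% over the genome). Class I held 1 and class III 1. Of these 6, 3 lay close together before TRIM27, at chr6:28809086-28809554, chr6:28836553-28836974 and chr6:28864631-28865048, with folds of 3.97, 4.09 and 4.80. RefSeq places 38 transfer RNA genes between ZSCAN23 and TRIM27, the stretch that holds them. It places 49 between BTN1A1 and ZNF184, where other regions of E4 only lay. Distances from the peaks to these genes were not measured. The E4 peaks at the 3 sites before TRIM27 were weak, at percentiles 11, 12.2 and 24.7, and D3 peaks lay 1.86, 4.22 and 1.32 kb away. With 8 regions in all, no more than their position can be said.

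The loci are described in order along the chromosome, with gene windows of 5 kb on either side. A merged region was counted for a gene if any part of it fell in that window. At TRIM40, HIST1H3A and HLA-E, only the D3 peak of the region of all 3 lists fell within reach. At the histone genes, whose 52 members lie in separate blocks, 12 genes had a region of all 3 lists within reach, 8 had regions of some lists and 32 had none. The genes share 10 distinct regions, of which 5 were in all 3 lists. The region at HIST1H3A, HIST1H4A, HIST1H4B and HIST1H3B, chr6:26026062-26027369, had a fold of 12.3 (D3), 5.02 (E4) and 8.16 (WT). It lay at percentiles 84.8, 60.9 and 89.3, so E4 placed it lowest.

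At the far end of the cluster, the region beside HIST1H2BO, chr6:27862906-27864112, lay at percentile 50.0 in D3, 73.7 in E4 and 83.6 in WT, so here D3 placed it lowest. The linker histone gene HIST1H1C and the pair HIST1H4C and HIST1H1T had weak regions of both clones, at the 13.7th and 21.3rd percentile of D3 and the 24.0th and 28.0th of E4. HIST1H4D and HIST1H4E had D3 peaks over their promoters at the 19.9th and 18.9th percentile and none in E4 or WT. At HFE, the iron regulation gene between histone blocks, the region chr6:26097107-26098274 lay at percentiles 64.0, 59.9 and 49.3 of D3, E4 and WT. Among regions of the genome called in all 3 lists, its ranks were 37.8, 51.8 and 41.5, so D3 ranked it lowest.

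By mean percentile over the lists, which chose the strongest regions named here, the first of the histone and extended class I segment was chr6:25992066-25993955 beyond TRIM38, a regulator of innate immune signalling. Its fold was 18.2 (D3), 21.0 (E4) and 13.5 (WT), and it lay at percentiles 97.6, 99 and 98.8. It was followed by chr6:26923950-26925326, with folds of 11.9, 18.7 and 10.9, and by chr6:27718855-27720712, with 21.5, 12.1 and 9.05. The last lay at percentiles 98.3, 90 and 89.6, so D3 placed it above the TRIM38 region.

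Other gene families listed for this segment are set beside all 162 listed genes, of which 62 had a region of all 3 lists. Of the 6 butyrophilin genes, relatives of T-cell regulators, 0 had a region of all 3 lists, 3 had regions of some lists (BTN3A1, BTN3A3 and BTN2A1) and 3 had none. Of the 14 zinc-finger and SCAN genes, 4 had a region of all 3 lists (ZSCAN16, ZSCAN31, ZKSCAN3 and ZSCAN12), ZNF322 and ZFP57 had a D3 peak, and 8 had none. The D3 peak at ZFP57 lay in class I. ZSCAN12 lay at percentile 81.5 in D3, 61.3 in E4 and 46.3 in WT. Of the 12 olfactory receptor genes, OR2J3 and OR2H2 had a region of all 3 lists, OR12D3 and OR11A1 one of some lists, and 8 had none. Among the 4 SLC17 transporter genes SLC17A1 had such a region and 3 genes had none.

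In WT the longest stretch without a peak, 302 kb, ran through olfactory receptor genes from OR2J3 to OR12D2, while D3 and E4 had peaks inside it. The region of the clones at OR12D3, chr6:29343401-29344157, lay at percentile 44.0 in D3 and 8.51 in E4. In D3 the longest stretch was 266 kb around ZNF184, and in E4 231 kb in class II.

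Among the class I genes, HLA-F, HLA-G, HLA-E, MICA and MICB had a region of all 3 lists, HLA-C had a D3 peak alone at percentile 27.1, and HLA-B had none within 5 kb. HLA-B and HLA-C are classical class I genes, and the others named here are less variable class I genes and stress-induced ligands. The region next to HLA-G, chr6:29801996-29803469, was among the strongest of the segment, with a fold of 21.1 (D3), 16.8 (E4) and 10.1 (WT). MICA had a pair of regions, chr6:31363993-31365557 and chr6:31366767-31368230, at percentiles 92.9, 93.4 and 86.7 and at percentiles 91.5, 87.5 and 91.3 of D3, E4 and WT. Between HLA-B and MICA, outside the 5 kb windows, chr6:31334120-31336768 was also in all 3 lists, at percentiles 86.1, 74.2 and 85.

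The strongest region of class I was chr6:30420926-30422306, between TRIM39 and HLA-E, with a fold of 21.4 (D3), 18.8 (E4) and 10.7 (WT). It stood at percentiles 99.2, 98.6 and 96.2. Another strong region, chr6:29720411-29721562 between HLA-F and HLA-G, had folds of 12.1, 19.3 and 9.80. Of the 8 TRIM genes 4 had a region of all 3 lists (TRIM38, TRIM31, TRIM40 and TRIM15), TRIM27 and TRIM10 had D3 peaks at or under the 3.18th percentile, and TRIM26 and TRIM39 had none. Of the 9 housekeeping and skin genes, PPP1R10, MDC1, TUBB, FLOT1 and CDSN had a region of all 3 lists, IER3 and DDR1 had regions of some lists, and ABCF1 and POU5F1 had none. The tubulin gene TUBB held a broad region, chr6:30689085-30692052, at percentiles 76.3, 79.0 and 77.2.

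In class III, the TNF block had a region of all 3 lists at TNF, LTB, NFKBIL1 and DDX39B, while LTA had one of both clones and AIF1 one of D3. TNF and LTB encode cytokines of inflammation and lymphoid tissue. Their common region, chr6:31548109-31549535, lay over LTB, with a fold of 11.6 (D3), 12.2 (E4) and 10.9 (WT), at percentiles 94.6, 96.2 and 97.4. The region over the NFKBIL1 promoter and close to the RNA helicase gene DDX39B, chr6:31513892-31515153, had folds of 15.1, 12.7 and 10.2. By mean percentile the first of the segment was chr6:31763103-31764324 at the start of VARS, the valyl-tRNA synthetase gene, with folds of 13.1, 16.1 and 9.47, although a region near MSH5 ranked higher in D3 and the LTB region ranked higher in WT.

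Of the 18 other class III genes, 9 had a region of all 3 lists, 6 had regions of some lists and 3 had none. Near MSH5 the region chr6:31737191-31738248 lay at percentile 98.4 in D3, 90.3 in E4 and 91.2 in WT. CFB, which encodes complement factor B, had chr6:31919644-31920948 at percentiles 96.1, 77.9 and 85.7. EHMT2, a histone H3 lysine methyltransferase gene, had a region at percentiles 83.0, 82.8 and 91.8. The complement gene C4B and the neighbouring steroid gene CYP21A2 had 1 D3 peak within reach, chr6:32005888-32006372 at the 31.7th percentile, and C4A, a near-identical copy of C4B, had none, though reads of such copies cannot always be placed. HSPA1A and HSPA1B, also a pair of near-identical genes, had no region.

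In class II, a region of all 3 lists was present at 5 of 5 antigen-processing genes (TAP2, PSMB8, TAP1, PSMB9 and TAPBP), beside 62 of all 162 listed genes. These genes lie close together and had 4 distinct regions of all 3 lists. TAP2 and PSMB8 shared 1 of them, and TAP1 and PSMB9 shared another. The region at the TAP2 promoter, chr6:32806283-32807221, had the highest mean percentile of the segment, with a fold of 17.5 (D3), 20.9 (E4) and 11.9 (WT), at percentiles 99.2, 98.7 and 97.3. The region between TAP1 and PSMB9, which are transcribed away from each other, was chr6:32821323-32822384, with a fold of 10.8 (D3), 8.39 (E4) and 10.8 (WT). It stood at percentiles 91.3, 87.9 and 96.0. TAPBP, whose product tapasin holds class I molecules at the pump, had a region at percentiles 82.0, 72.1 and 53.3. Among regions called in all 3 lists, its ranks were 68.2, 66.3 and 45.8.

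Of the 13 class II genes of the list, 5 had a region of all 3 lists (HLA-DMB, HLA-DMA, HLA-DOA, HLA-DPA1 and HLA-DPB1), BTNL2 had a D3 peak and 7 had none. HLA-DMA and HLA-DMB encode the molecule that loads peptides on class II, and their regions lay at the 59.5th to 86.8th percentile in D3, the 49.8th to 81.6th in E4 and the 38.9th to 73.6th in WT. At HLA-DPB1 the region chr6:33059308-33060529 lay at percentile 95.5 in D3, 74.6 in E4 and 90.7 in WT. The genes without a region were HLA-DRA, HLA-DRB5, HLA-DRB1, HLA-DQA1, HLA-DQB1, HLA-DQA2 and HLA-DOB.

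HLA-DRB5, HLA-DRB1, HLA-DQA1 and HLA-DQB1 lay in the longest stretch of the window without a peak in any list, chr6:32428971-32659494, 231 kb long. In WT alone the stretch was 276 kb and took in HLA-DRA, since chr6:32399791-32401414 and chr6:32428177-32428970, on either side of that gene, were called in the clones and not in WT. These were weak, at the 9.87th and 17.9th percentile of D3 and the 15th and 0.413th of E4. The nearest regions on either side that WT shared were present in all 3 lists, with chr6:32380778-32384042 at percentiles 87.9, 82.0 and 93.5 and chr6:32659495-32660401 at the 74.4th, 37.4th and 69.4th. Gene content differs between human haplotypes in this stretch, and how well reads can be placed there was not measured here.

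Beyond these genes, COL11A2, a fibrillar collagen gene, had the second region of the segment by mean percentile, chr6:33128854-33130186, with folds of 19.2, 19.5 and 10.0. Next came chr6:33358445-33359905, with 19.9, 17.6 and 8.59. BRD2, a bromodomain gene, had 3 of 3 regions in all lists, RXRB, a nuclear receptor gene, 2 of 2, and the Polycomb gene RING1 1 of 2, while DAXX had none. Over all gene lists, 62 of 162 genes had a region of all 3 lists, 29 had regions of some lists and 71 had none, and 61 of the 105 distinct regions near them were in all 3 lists.

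The last comparison concerned strength. Peaks of the window ranked higher than the middle of their own lists, with a median percentile of 56.2 (D3), 60.2 (E4) and 61.3 (WT), where a whole list has 50. In the histone and extended class I segment the medians were 48.7, 56.6 and 49.3, in class I 61.0, 69.6 and 65.6, in class III 56.9, 64.6 and 63.3, and in class II 63.0, 58.8 and 64.1. The share of peaks above percentile 50 of their list was 56.1% in D3 (50.1 to 61.9), 60.7% in E4 (53.9 to 67.2) and 60.7% in WT (53.7 to 67.4). The rest of chromosome 6 had medians of 46.8, 44.1 and 46.7.

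For regions called in all 3 lists, ranks were taken among the 32495 such regions of the genome, so that the lists had equal length. Over the 185 of the window the median difference from WT was −0.997 percentile points in D3 (quartiles −12.9 and 9.94) and 1.56 points in E4 (−8.83 and 12.2). D3 ranked higher than WT in 90 of the 185 and E4 in 100. By segment the median difference ran from −2.08 to 0.280 points in D3 and from −2.55 to 3.98 points in E4, small beside the spread between single regions.

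Differences of over 30 points were counted beside the genome. D3 ranked lower than WT by this much at 16 of 185 regions (5.63% over the genome) and higher at 4 (5.75%), so 8.65% and 2.16% of the window's shared regions. E4 ranked lower at 12 (6.31%) and higher at 12 (6.02%). The D3 counts of 16 and 4 were unequal where the genome's were nearly equal, and no test of this was possible with 1 library per population. The regions with the largest differences, chosen after their values were seen, include chr6:31696949-31698254 in class III, at rank 12.4 in D3, 72.3 in E4 and 78.6 in WT. The region beside HIST1H2BO followed, with ranks of 18.6, 68.2 and 80.7.

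In the other direction, chr6:30500025-30500955, between HLA-E and ABCF1, had rank 57.4 in D3, 37.5 in E4 and 0.226 in WT, with folds of 10.5, 6.31 and 3.03. The region chr6:26322008-26322880, between HIST1H4H and the butyrophilin genes, had ranks of 64.8, 63.5 and 9.20, with both clones above WT. E4 was lowest at chr6:28737084-28740602 (41.7, 13.7 and 71.7) and at TRIM15, a gene of the TRIM family (67.2, 37.4 and 80.1). These are values of single libraries.

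**Figure D5:**
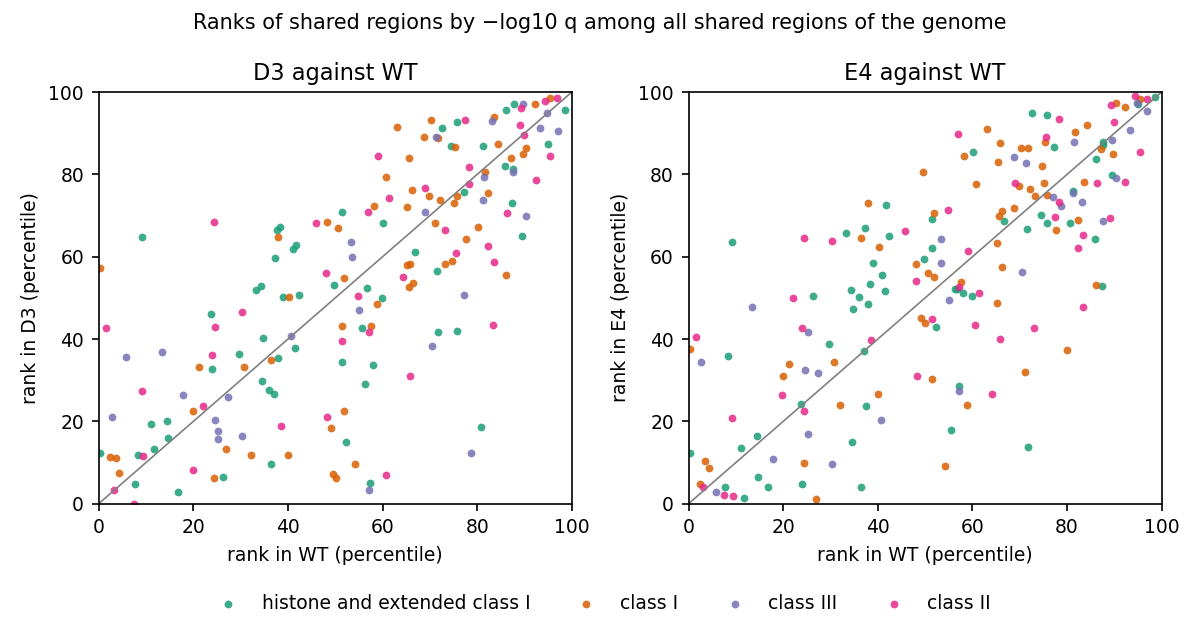
Percentile rank by −log10 q in D3 (left, vertical axis) and E4 (right, vertical axis) against the rank in WT (horizontal axis) for the 185 regions of the window called in all 3 lists, among all 32495 shared regions of the genome, coloured by segment, with the line of equal rank. Points spread on both sides of the line, with 90 above it in D3 and 100 in E4.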

How the data were processed

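CTCF was measured by chromatin immunoprecipitation and sequencing in D3, E4 and WT, 1 library each, and the 3 libraries without antibody were not used. The authors deposited 1 broad peak list per CTCF library on hg19. Per the submitters' processing notes, MACS2 2.2.7.1, CASAVA 1.8.2, bedtools 2.29.2 and Picard 2.23.1 were used, and their settings and the aligner are not given in the sources used here. In the deposited files, columns hold the fold enrichment of each peak, its −log10 p and −log10 q, and a score that equals 10 times the −log10 q, decimals dropped, in at least 99.97% of peaks of each list. Read depth is unknown, so the precision of each value is limited in a way that was not measured.

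Peaks went to segments by their midpoint. Peaks of different lists sharing at least 1 bp were merged into regions. Percentiles rank peaks by −log10 q within a list, so values of different lists were never subtracted except as ranks among regions called in all 3 lists. Each clone was set against the same WT library, and no test was possible with 1 library per population. Exact 95% intervals cover counting error only. Gene positions on hg19 came from general knowledge, since no hg19 annotation was used, and 157 of 162 were matched to RefSeq (GRCh38.p14), with 1 neighbouring pair in another order. The calculations were tested on simulated peak lists and run with Python 3.11.15, numpy 2.4.6, pandas 2.3.3, scipy 1.17.1 and matplotlib 3.10.9. The segments, the 14 gene lists and the alternatives (stricter peaks, equal list length, other overlaps, ranking by fold) were chosen with earlier results of these data known. Genes were named where they belong to a list, and some members are not reported here. The regions given in full are, per segment, the 3 strongest and the broadest region of all 3 lists, the strongest of each other presence pattern, and the largest rank differences.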

Additional observations from a re-analysis of the deposited data

Results flagged for a closer look

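Over class I, D3 had more peaks than WT and E4 had fewer. D3 had 87 peaks there, E4 63 and WT 64, so D3 minus WT was 23 and E4 minus WT was −1, a single peak. As shares of their lists these were 0.150%, 0.160% and 0.166%, with both clones below WT, and the D3 number was 1.36 times that of WT, beside 1.5 times over all chromosomes but Y. Within 5 kb of HLA-E, D3 had 3 peaks, E4 0 and WT 1, so D3 minus E4 was 3. The E4 peak and the WT peak of the region shared there both lay outside that distance. The 1 WT peak counted was the WT-only peak at percentile 1.54. The D3 peaks lay at percentiles 84.9, 55.2 and 1.31 of the D3 list. Around IER3, D3 had 3 peaks, E4 0 and WT 1, so D3 minus E4 was again 3, and the D3 peaks lay at percentiles 13.4, 45.4 and 25.9. Over its whole list, 34% of D3 peaks had no E4 peak. None of these differences was tested, since each population had 1 library.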

How the results depend on the processing

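Of 123 alternatives, 101 stayed within the counting interval or within 1.5 times the count given, and 22 moved, with no test behind any of them. Some of the 101 could not move, so the tally overstates stability. No peak crossed a segment border, so assigning peaks to every segment they overlap changed nothing. WT was the shortest list, so equal list length left its own shares, widths and percentiles unchanged. The order of the lists turned in some: WT peaks overlapped were 93.2% by E4 at equal list length, above the D3 values given below, and the E4 share in the window, 0.616% among peaks passing a −log10 q of 5, was below that of WT. With peaks of a −log10 q of 5 or more, the share of the WT list was 0.644% in the window and 0.229% in class I, the median widths were 1126 bp in D3, 934.5 bp in E4 and 780.5 bp in WT, D3 overlapped 98.8% of E4 peaks, and 0 WT peaks were in neither clone. At equal list length by −log10 q, the D3 median width was 1126 bp, D3 overlapped 92.7% of WT and 89.3% of E4 peaks, E4 overlapped 93.6% of D3 peaks, 9 WT peaks were in neither clone, and 11 regions of both clones lacked WT. At equal list length by fold these were 91.7%, 87.4%, 91.2%, 9 and 10. Requiring 50% of a peak covered gave 63.3% of D3 peaks overlapped by E4 and 6 WT peaks in neither clone. With 50% of the merged region required, 59 regions were covered by both clones and not by WT, including regions that hold a narrower WT peak. In regions with 1 peak of every list the D3 median width was 1158.5 bp. The cause of these shifts was not tested, apart from the shorter lists that equal length makes by construction. No paired analysis was possible because each population had 1 CTCF library and no result came from a test. Unknown depth, single libraries and unmeasured mappability limit every value.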
